A study of Mus musculus with 48 samples.

Results

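The p38 mitogen-activated protein kinases are encoded in the mouse by 4 genes: Mapk14 (p38 alpha), Mapk11 (p38 beta), Mapk12 (p38 gamma) and Mapk13 (p38 delta). Chromatin accessibility at these genes was measured by ATAC-seq, in which the Tn5 transposase cuts open DNA and the reads in a peak count how often the site was reached. Of 53868 peaks in the deposited table, 14 belong to the 4 genes: 8 to Mapk14 and 2 each to Mapk11, Mapk12 and Mapk13. A peak was given to the gene whose body it overlaps, or otherwise to the nearest body within 100 kb; 12 of the 14 overlap a body, and the other 2 lie 2071 bp (Mapk14) and 7089 bp (Mapk13) away, far inside that limit. Whether a peak is exonic or intronic was not analysed here. The gene family was chosen by a measured value, the low signal of 1 Mapk14 peak in aged hosts with the Zfp219 guide against the control guide, so that contrast is described here without a test for any of the 14 peaks.

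In p38 signalling, stress, cytokine or antigen receptor signals act through MAP3 kinases on the MAP2 kinases MKK3 and MKK6 (Map2k3 and Map2k6), which phosphorylate p38. Active p38 phosphorylates kinases such as MK2 (Mapkapk2) and transcription factors of the ATF and MEF2 families, and dual specificity phosphatases of the Dusp family switch MAP kinases off. In T cells, Zap70 can also activate p38 alpha and beta directly after antigen receptor engagement. Mapk14 is the form found most widely across tissues.

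All cells were CD45.1 Cas9-expressing OT-1 CD8 T cells, whose antigen receptor recognises ovalbumin, carrying a lentiviral sgRNA with an ametrine reporter. They were transferred into young or aged mice 1 day before B16-OVA melanoma (B16 expressing ovalbumin) was implanted, and were sorted from tumours on day 15. The guides targeted Zfp219 (label Zfp219KO) or Dusp5 (label Dusp5KO), or were the control that the labels call OTC. The sorted states were progenitor exhausted (Tprog, Slamf6+ Tim-3-), transitory effector-like (Ttran, Slamf6+ Tim-3+), terminally exhausted (Tterm, Slamf6- Tim-3+) and, in aged hosts only, age-associated dysfunctional cells (Ttad, Slamf6- Tim-3-). This gives 21 groups of 2 or 3 libraries, 48 in all, 24 of each host age; A and Y in the sample names were read as aged and young. Each library was made from 5000 to 50000 sorted cells, pooled over mice, and the mice behind each library were not named in the sources used here.

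Reads in peaks ranged from 5638413 to 29942755 per library. Values are the authors' normalized reads, whole read counts divided by 1 factor per library. Per peak, 2 libraries of a group differed by a median of 3.39 times the variance of counting alone (33 pairs, 2.83 to 4.63), and by 3.62 times in the strongest 10% of peaks. The spread between replicates thus grew with the signal much as counting error does; p-values measure only the spread between these libraries, which may be technical. Aged and young libraries carry separate series of sample-sheet numbers, so host age and that series cannot be told apart. All 5 CD8 T cell marker genes had peaks, with a summed signal of 4195 to 5744; Csf1r, Adgre1, Lyz2, Tyr and Dct had no peak, while 2 of 5 myeloid, 4 of 6 melanoma, 2 of 2 CD4 T cell and 2 of 2 NK cell genes had one (summed signal 405 to 843, 854 to 1537, 740.4 to 1415 and 535 to 866), and the part of such cells in the results was not tested. Of 4 B cell genes 1, Pax5, had a peak (signal 112 to 424), and its part was not tested either. Loss of the guide's target was not analysed here.

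All 4 genes have a peak over an annotated start. The DNA just before the start is shown for Mapk14 and Mapk11, where the start peak covers it. For Mapk12 and Mapk13 the base before the start already lies in an annotated gene body, so none is printed. The sequences are from RefSeq (GRCm38.p6), 5′ to 3′ on the gene's strand, ending at the base before the start; capitals mark matches, on either strand, to the GC box GGGCGG and to the CCAAT box CCAAT. Only bases outside every annotated gene body are printed, which leaves 68 of 250 bases for Mapk14 (chr17:28691274-28691341, plus strand, next to the body of Slc26a8) and all 250 for Mapk11 (chr15:89149607-89149856, minus strand).
Mapk14: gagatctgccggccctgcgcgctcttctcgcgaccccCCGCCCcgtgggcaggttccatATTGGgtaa
Mapk11: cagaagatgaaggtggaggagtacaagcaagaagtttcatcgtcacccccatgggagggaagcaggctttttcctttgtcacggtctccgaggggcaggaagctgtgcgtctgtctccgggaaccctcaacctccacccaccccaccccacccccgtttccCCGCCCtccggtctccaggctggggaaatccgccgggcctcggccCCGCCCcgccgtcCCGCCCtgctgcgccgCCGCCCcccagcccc
Over the 250 bases before the first start, the GC content was 70.4% for Mapk14, 68% for Mapk11, 64.4% for Mapk12 and 76% for Mapk13, against a median of 52.4% over 32851 mouse promoters of that length. The Mapk14 stretch holds 30 CpG dinucleotides, more than in 94.1% of those promoters, and the median promoter holds 6. A GC box occurs in the stretch of each of the 4 genes and in 32.7% of all promoters. The CCAAT box, found in 33.9% of promoters, occurs in Mapk14 alone of the 4, and the E-box CACGTG, found in 6.02%, in Mapk12 alone. No match was found in the 4 stretches for the TATA box TATAAA (12.4% of promoters), CRE TGACGTCA (1.55%), AP-1 TGANTCA (6.75%), the NRF1 core motif (3.74%), ETS CCGGAAGT (2.88%), Runx TGTGGTT (4.4%), TCF CTTTGAT (3.21%) or T-box TCACACCT (1.12%), on either strand. Such matches describe letters, not binding.

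Mapk14 was the most accessible of the 4 genes at its start. Its start peak (chr17:28690803-28692729, which also overlaps the body of Slc26a8 and holds both annotated Mapk14 starts) had a mean of 972 normalized reads, or 505 per kb of peak. The Mapk11 start peak (chr15:89148866-89150344) had 113 per kb, the Mapk12 start peak (chr15:89139934-89140839) 50.1 per kb and the Mapk13 start peak (chr17:28769300-28769940) 34.8 per kb. For Mapk12 the strongest peak was not at the start but 9.1 kb downstream of it (chr15:89131210-89131983, 318 per kb). Within Mapk14, whose peaks are named here by the distance of their midpoint from the first start, the +10.2 kb peak (chr17:28701062-28701932, 514 per kb) and the +6.8 kb peak (chr17:28697380-28698852, 427 per kb) were close to the start peak in reads per kb. The +45.1 kb peak (chr17:28735782-28737050) had 243 per kb and the +59.9 kb peak beyond the gene's end (chr17:28750476-28752046) 152 per kb. The remaining 3 Mapk14 peaks were weak, with 23.3 reads on average at +15.6 kb (chr17:28706776-28707026), 31.3 at +18.4 kb (chr17:28709541-28710003) and 27.5 at +21.4 kb (chr17:28712505-28713072).

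The Mapk14 start was nearly level across the study. It held 811 to 1145 normalized reads over the 48 libraries (median 961), and the highest group mean, 1106 in aged Zfp219 Tterm, was 1.27 times the lowest, 871 in young Dusp5 Ttran. Ordered by mean, none of the 20 pairs of neighbouring groups differed by more than their SD. Sorting places groups of similar mean side by side, so this count does not show that a peak is level. The +59.9 kb peak, with a highest to lowest ratio of 2.36, also had 0 such pairs. In none of the 11 comparisons tested did the start peak pass the threshold. Among these 11 its largest log2 ratio (the log2 fold change of the first named group over the second) was -0.12 (SE 0.08, 95% interval -0.28 to 0.05, adjusted p = 0.319) between young OTC Tprog and Tterm. The aged Zfp219 contrast, which has no test, is not among them. There the start held 944 to 1137 reads with Zfp219 (mean 1047) and 876 to 994 in OTC (mean 947). Tests were limma on log2(normalized reads + 1), fitted to all 48 libraries with p-values adjusted by Benjamini-Hochberg over all 53868 peaks and called at adjusted p under 0.05.

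Away from the start, Mapk14 accessibility differed between exhaustion states in opposite directions along the gene. The comparison of Tprog with Tterm asks how progenitor and terminally exhausted control cells differ. At the +6.8 kb peak, the aged OTC Tprog libraries had 864 and 917 reads and the Tterm libraries 549 and 565. In young hosts the Tprog libraries had 702 and 801 reads and the Tterm libraries 534, 481 and 555. Tprog thus lay above Tterm in both ages without overlap, with a log2 ratio of 0.67 (SE 0.11, adjusted p = 1.57e-06) in aged and 0.52 (SE 0.10, adjusted p = 3.59e-05) in young hosts.

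The +45.1 kb peak went the other way. Aged Tprog libraries had 164 and 210 reads and aged Tterm libraries 418 and 366. Young Tprog libraries had 229 and 278 reads and young Tterm libraries 406, 464 and 459. Tprog was the lower state in each library of both ages, with a log2 ratio of -1.07 (SE 0.15, adjusted p = 1.95e-08) in aged and -0.81 (SE 0.14, adjusted p = 1.97e-06) in young hosts. These 2 peaks held their calls under every alternative run, both ages included.

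The +59.9 kb peak, beyond the end of Mapk14 and on the side of the neighbouring Mapk13, followed the +45.1 kb peak. It had 220 and 170 reads in aged Tprog against 291 and 292 in aged Tterm, and 138 and 199 in young Tprog against 281, 299 and 264 in young Tterm. The log2 ratio was -0.59 (SE 0.18, adjusted p = 0.0115) in aged and -0.76 (SE 0.17, adjusted p = 0.000172) in young hosts; without replicate 1 the young value was -0.50 (adjusted p = 0.104). The weak +18.4 kb peak was lower in aged Tprog, with 17 and 28.4 reads against 76.3 and 42.2 (log2 ratio -1.33, SE 0.48, adjusted p = 0.0365), and this rests on replicate 1, without which it was -0.55 (adjusted p = 0.679). At +10.2 kb the Tprog libraries were above the Tterm libraries in both ages, but the difference did not pass (log2 ratio 0.31, SE 0.13, adjusted p = 0.0899 in aged; 0.21, SE 0.12, adjusted p = 0.2 in young).

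**Figure D1:**
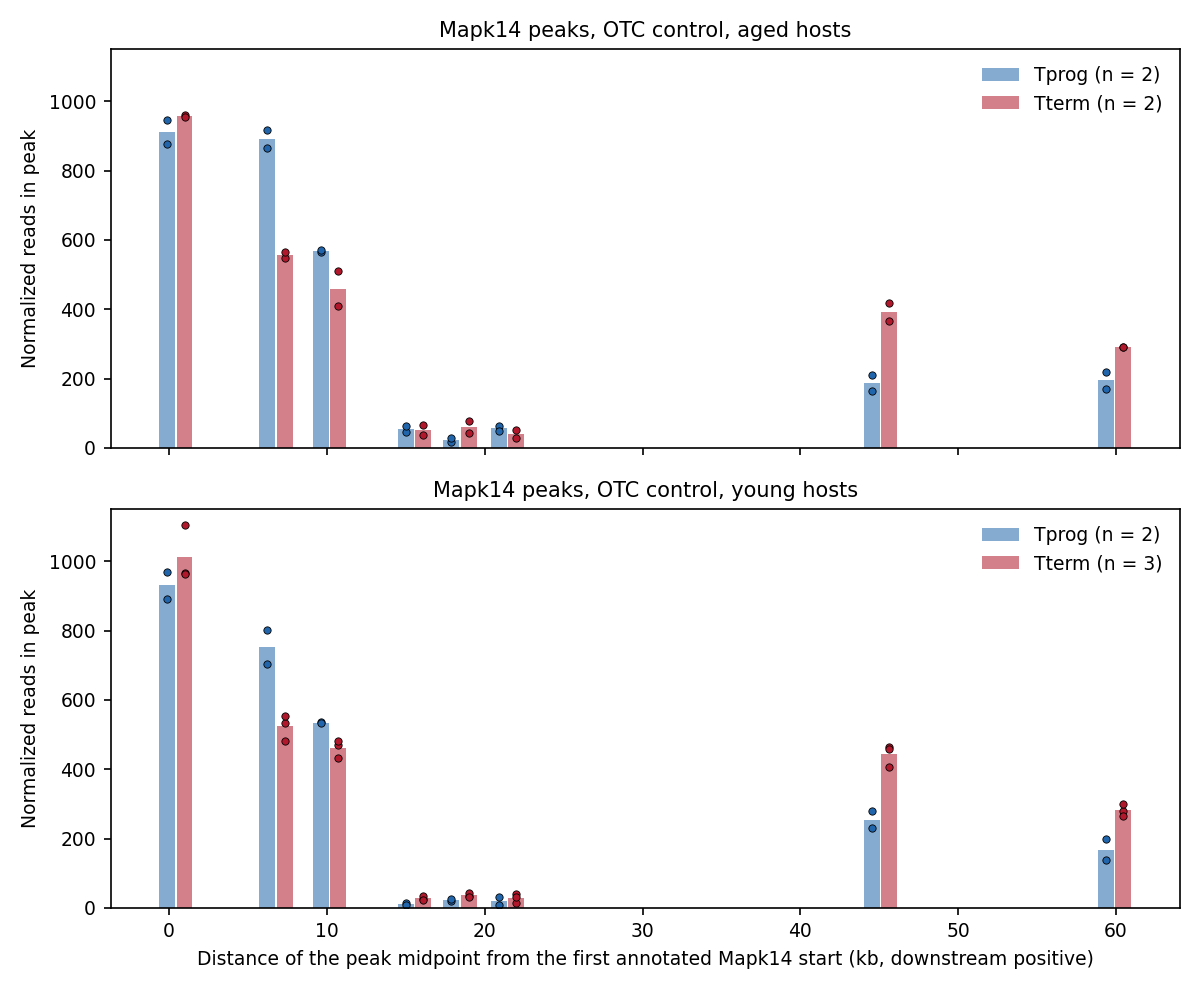
Normalized reads in each Mapk14 peak against its distance from the first annotated start (kb), for OTC control libraries of aged (top) and young (bottom) hosts; bars are group means, points are libraries, and bars are set side by side around the peak's position. The start peak is about level between Tprog and Tterm, the +6.8 kb peak is higher in Tprog and the +45.1 and +59.9 kb peaks are higher in Tterm in both ages.

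Among the other p38 genes, Mapk11 alone had a peak that passed this comparison. The Mapk11 +2.5 kb peak (chr15:89146634-89147534) had 126 and 119 reads in aged Tprog against 59.9 and 57.7 in aged Tterm, and 130 and 129 in young Tprog against 84.1, 84.9 and 65.8 in young Tterm. Its log2 ratio was 1.04 (SE 0.29, adjusted p = 0.00514) in aged and 0.73 (SE 0.27, adjusted p = 0.0325) in young hosts, and the call was lost in both ages when any 1 replicate number was left out (adjusted p 0.0715 to 0.14). At the Mapk11 start the difference did not pass (log2 ratio 0.51, SE 0.20, adjusted p = 0.0606 in aged; 0.35, SE 0.18, adjusted p = 0.162 in young), nor at Mapk12 +9.1 kb (0.46, SE 0.18, adjusted p = 0.0542; 0.35, SE 0.16, adjusted p = 0.107). The Mapk12 start peak had a log2 ratio of 0.61 (SE 0.43) in aged and 0.95 (SE 0.40, adjusted p = 0.0653) in young hosts, and edgeR called the young value. Both Mapk13 peaks were weak, with medians of 26.8 reads at 7.3 kb before the start (chr17:28761852-28762197) and 22 at the start, and their 95% intervals spanned zero in both ages.

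In all, 5 of 13 member peaks tested passed in aged OTC hosts (2 higher and 3 lower in Tprog), where 20.1% of all peaks did, and 5 of 14 in young OTC hosts (2 higher and 3 lower), where 26.5% did. The aged test leaves out the +15.6 kb Mapk14 peak, whose aged control libraries were used to choose the family. Of the young calls, the fifth was that peak, with 6.85 and 12.9 reads in Tprog against 23.6 to 33.0 in Tterm (log2 ratio -1.41, SE 0.56, adjusted p = 0.049); without replicate 2 it was -0.85 (adjusted p = 0.412), and without replicate 3 it also failed (adjusted p = 0.0816), so the call rests on single libraries. Median log2 ratios over the member peaks were 0.46 in aged and -0.11 in young hosts, against 0.01 over all peaks in each.

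Whether the Tprog to Tterm difference itself depended on host age was tested after the data were seen. None of 13 member peaks passed in limma (0 at unadjusted p under 0.05, and 0 in edgeR), where 2.32% of all peaks passed. The aged minus young difference was 0.15 (95% interval -0.15 to 0.46) at +6.8 kb and -0.26 (95% interval -0.67 to 0.14) at +45.1 kb on the log2 scale.

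Tprog and Tterm were also compared with the other guides included, given here as a count. In each of the 6 sets of host age and guide, all Tprog libraries were compared with all Tterm libraries, a count added after the data were seen. For 5 of the 14 member peaks the libraries did not overlap, in 1 direction, in all 6 sets, as was so for 14.4% of all peaks. Tprog was higher at Mapk14 +6.8 kb, at Mapk11 +2.5 kb and at the Mapk11 start, and lower at Mapk14 +45.1 kb and +59.9 kb. The OTC libraries of the tests above form 2 of these 6 sets.

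In OTC cells the group means of the intermediate states lay between Tprog and Tterm at the 2 Mapk14 peaks. At +6.8 kb, Ttran did not pass against Tterm in either age (log2 ratio 0.22, SE 0.11, adjusted p = 0.305 in aged; 0.15, SE 0.09, adjusted p = 0.382 in young), and with the Dusp5 guide in aged hosts Ttran had a mean of 533 against 544 in Tterm. At +45.1 kb, aged OTC Ttran had 278 and 269 reads, below Tterm (log2 ratio -0.51, SE 0.15, adjusted p = 0.0388). It was the 1 of 13 member peaks called between aged Ttran and Tterm, where 3.22% of all peaks were called, and it was lost without replicate 1 or 2 (adjusted p = 0.288 and 0.178). In young hosts Ttran had 322, 361 and 382 reads, below each Tterm library, but none of 14 member peaks passed in limma (1 at unadjusted p under 0.05, this peak, with adjusted p = 0.098; 0 in edgeR), where 8.38% of all peaks did.

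Ttad, a state with libraries from aged hosts only, had 698 and 750 reads at +6.8 kb and 283 and 251 at +45.1 kb in OTC cells. Against Tterm, +6.8 kb was higher (log2 ratio 0.38, SE 0.11, adjusted p = 0.0245) and +45.1 kb lower (-0.55, SE 0.15, adjusted p = 0.0121). These were the 2 of 13 member peaks called, against 7.28% of all peaks, and neither was called without replicate 1 or without replicate 2 (adjusted p 0.142 to 0.247). Against Tprog, +45.1 kb was higher in Ttad (0.52, SE 0.15, adjusted p = 0.0214), the 1 of 13 called, where 6.55% of all peaks were called; it was 0.26 (adjusted p = 0.617) without replicate 1, and edgeR did not call it.

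Within each library the 2 peaks can be set against each other, which needs no scaling between libraries. The reads at +45.1 kb were 0.19 to 0.347 of those at +6.8 kb in the 12 Tprog libraries (median 0.252), 0.335 to 0.417 in the 6 Ttad libraries (median 0.394), 0.363 to 0.64 in the 15 Ttran libraries (median 0.517) and 0.647 to 0.999 in the 15 Tterm libraries (median 0.825). Every Tterm library lay above every library of the other 3 states, over both ages and all guides, while Ttad and Ttran overlapped. In aged hosts, the source of all Ttad libraries, Tprog (0.19 to 0.257) and Ttad did not overlap, and the young Tprog libraries reached into the Ttad range. This ratio was formed after the values of both peaks were seen and has no test.

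**Figure D2:**
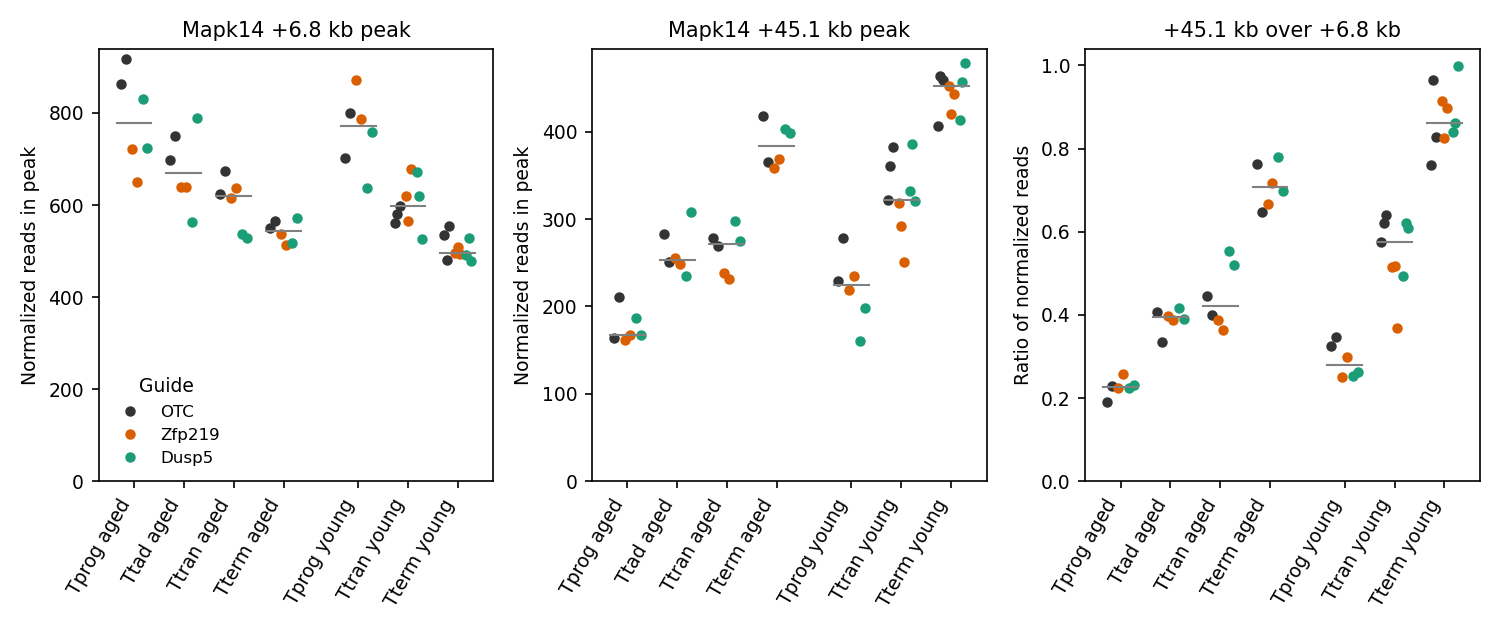
Normalized reads at the Mapk14 +6.8 kb peak (left) and +45.1 kb peak (middle), and their ratio (right), in each library by state and host age; colours are guides and grey lines the median of a state within an age. In each age the Tprog median is highest at +6.8 kb and lowest at +45.1 kb, the Tterm median is the reverse, and the ratio is 0.347 or less in Tprog and 0.647 or more in Tterm.

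Host age was compared within a guide over Tprog, Ttran and Tterm. In OTC cells 3 of 13 member peaks passed, where 36.5% of all peaks did. Marker medians are over all libraries of an age and guide, so the aged ones include Ttad and the young ones do not. The median summed signal in aged against young OTC libraries was 593 against 743 for the myeloid list and 4913 against 5447 for the CD8 T cell list. Their part in these results was not tested. Mapk12 +9.1 kb was lower in aged hosts, with a mean of 208 reads against 275 (log2 ratio -0.43, SE 0.10, adjusted p = 0.00016). Its 8 young libraries lay between 214 and 344 reads, and aged OTC Ttran, with 167 and 150, was the lowest of all 21 groups. The aged Tprog libraries, with 264 and 271, lay inside the young range, and the aged Tterm libraries had 159 and 236. At Mapk14 +45.1 kb the aged mean was 284 against 351 (-0.33, SE 0.08, adjusted p = 0.000771; -0.29 and adjusted p = 0.059 without replicate 2), and at +6.8 kb 699 against 618 (0.17, SE 0.06, adjusted p = 0.0247; adjusted p = 0.115 and 0.215 without replicate 1 and without replicate 2).

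Cells with the Dusp5 guide, none of whose libraries are in the OTC comparison, also had less Mapk12 +9.1 kb signal in aged hosts (217 against 265, log2 ratio -0.30, SE 0.10, adjusted p = 0.0114; adjusted p = 0.225 without replicate 2). In them the Mapk12 start peak was higher in aged hosts (57.7 against 36.9, 0.71, SE 0.24, adjusted p = 0.0158; 0.51 and adjusted p = 0.319 without replicate 1). These were 2 of 14 member peaks, where 31.8% of all peaks were called. With the Zfp219 guide age was not tested. Its group means at Mapk12 +9.1 kb in Tprog, Ttran and Tterm were 264, 234 and 269 in aged hosts. In young hosts they were 304, 241 and 255, so aged Tterm was not the lower group there. The median summed signal in aged against young Dusp5 libraries was 542 against 775 for the myeloid list, 1020 against 1288 for the melanoma list and 939.7 against 1160 for the CD4 T cell list. For the CD8 T cell list it was 4548 against 4967. Here too the aged medians include Ttad libraries and the young ones do not. The part of these lists in the results was not tested. At +6.8 and +45.1 kb the Dusp5 age differences were 0.03 (SE 0.06) and -0.15 (SE 0.08) and did not pass.

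The Mapk14 +15.6 kb peak, a stretch of 250 bp within the gene body, is the one that led to the choice of the family. Its depth is low: 2 to 72 reads per library before scaling, and under 30 in 34 of the 48. The 8 aged OTC libraries held 33.5 to 73.9 normalized reads. Aged Zfp219 libraries held 2.84 and 3.05 in Tprog, 3.06 and 20.4 in Ttran, 8.96 and 21.5 in Tterm, and 11.9 and 15.3 in Ttad. Zfp219 lay below OTC without overlap in all 4 states, with a mean of 10.9 against 51.7 reads and a log2 ratio of -2.43 (SE 0.31). Taken state by state, the log2 ratio ran from -3.81 in Tprog through -2.10 in Ttran and -2.07 in Ttad to -1.73 in Tterm. These values chose the peak and are given with no test. The median summed signal of the 2 NK cell genes was 589 in aged OTC and 762 in aged Zfp219 libraries, that of the myeloid list 593 and 624 and that of the melanoma list 1187 and 1033; their part in the result was not tested.

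The other groups are given beside them. Aged Dusp5 libraries held 11.7 to 43.5 reads, young OTC 6.85 to 33.0, young Zfp219 7.97 to 22.5 and young Dusp5 3.61 to 32.6. Of the 40 libraries that are not aged OTC, 1 (aged Dusp5 Ttad, 43.5 reads) reached the lowest aged OTC value. The aged OTC libraries were among those that chose the peak, so this order is a description and supports nothing. Where this peak could be tested without the aged OTC libraries, no guide difference passed: in young hosts the log2 ratio was -0.16 for Zfp219 (SE 0.31, 95% interval -0.78 to 0.46, adjusted p = 0.831) and -0.46 for Dusp5 (SE 0.31, 95% interval -1.08 to 0.15, adjusted p = 0.491). Whether the guide difference depended on age was not tested, since the aged value chose the peak. Between aged and young Dusp5 cells the log2 ratio was 0.50 (SE 0.33, adjusted p = 0.26).

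**Figure D3:**
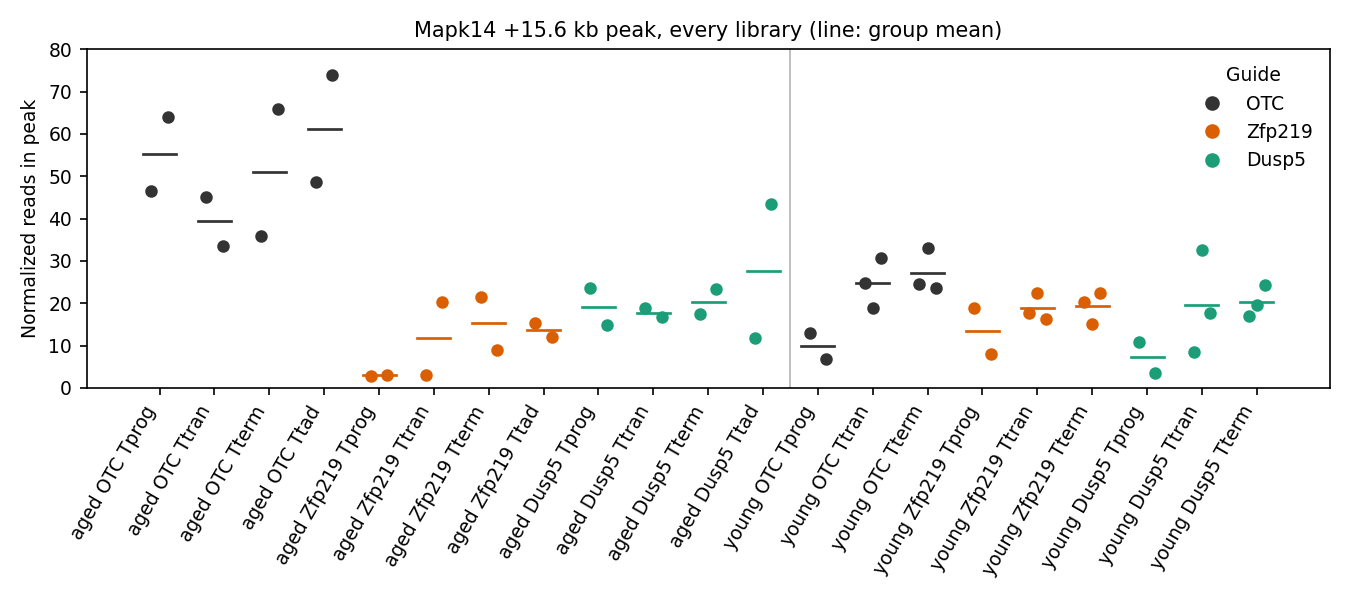
Normalized reads at the Mapk14 +15.6 kb peak in each of the 48 libraries, grouped by host age, guide and state; points are libraries and lines group means. The 8 aged OTC libraries lie between 33.5 and 73.9, and 1 of the other 40 libraries reaches that range.

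In the same aged Zfp219 contrast, the rest of the family is given as description. The Mapk14 start had a log2 ratio of 0.14 (SE 0.05; 1047 against 947 reads), +6.8 kb -0.17 (SE 0.06), +10.2 kb -0.36 (SE 0.07; 372 against 480 reads), +18.4 kb -0.48 (SE 0.24; 25.8 against 36.9 reads), +21.4 kb -0.70 (SE 0.29), +45.1 kb -0.15 (SE 0.08) and +59.9 kb -0.34 (SE 0.09). The Mapk11 start and Mapk12 +9.1 kb peaks both had 0.24 (SE 0.10 and 0.09), Mapk11 +2.5 kb had -0.14 (SE 0.15; 78.0 against 88.4 reads), the Mapk12 start -0.40 (SE 0.22; 42.0 against 55.7 reads), and the Mapk13 peaks 0.17 (SE 0.26) and -0.30 (SE 0.28).

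In young hosts, where the Zfp219 contrast is independent of the choice, 1 of 14 member peaks passed, against 7.07% of all peaks. The Mapk11 start peak was lower with the Zfp219 guide (134 against 168 reads, log2 ratio -0.32, SE 0.10, adjusted p = 0.0397). Its young Zfp219 libraries held 113 to 154 reads and the young OTC libraries 141 to 212, which overlap. The call was lost on leaving out any 1 replicate number (adjusted p 0.117 to 0.247), and in aged hosts the same peak had a log2 ratio of 0.24.

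Dusp5 encodes a dual specificity phosphatase of MAP kinases. It is not among the phosphatases followed below as brakes, and p38 activity was not measured here. In aged hosts 3 of 13 member peaks were called, all lower with the Dusp5 guide. Of all peaks 12.2% were called, 2344 higher and 4241 lower. These comparisons share the aged OTC libraries with the contrast that chose the family. At +21.4 kb the Dusp5 libraries held 10.6 to 45.1 reads and the OTC libraries 25.5 to 64.5, which overlap (log2 ratio -0.92, SE 0.29, adjusted p = 0.0233). At +10.2 kb the means were 418 against 480 (-0.19, SE 0.07, adjusted p = 0.0409) and at +6.8 kb 633 against 705 (-0.16, SE 0.06, adjusted p = 0.0499). None of the 3 was called without replicate 1 or without replicate 2 (adjusted p 0.163 to 0.27), and the last 2 were lost with quantile normalization. In aged Dusp5 against aged OTC libraries the median summed signal was 939.7 against 1210 for the CD4 T cell list, 1020 against 1187 for the melanoma list, 542 against 593 for the myeloid list and 712 against 589 for the NK cell genes. For the CD8 T cell list it was 4548 against 4913. The part of these lists in the results was not tested.

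In young hosts none of 14 member peaks passed in limma for Dusp5 against OTC (3 at unadjusted p under 0.05), where 3.82% of all peaks did. The +10.2 kb peak had -0.21 (SE 0.07, adjusted p = 0.0706) there, in libraries that are not in the aged contrast, and was the 1 peak that edgeR called. The difference of the Dusp5 effect between ages, tested after the data were seen, was -0.04 (SE 0.10) at this peak, and no member peak passed of 13 (1 at unadjusted p under 0.05, +21.4 kb; 0 in edgeR), where 4% of all peaks passed.

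**Figure D4:**
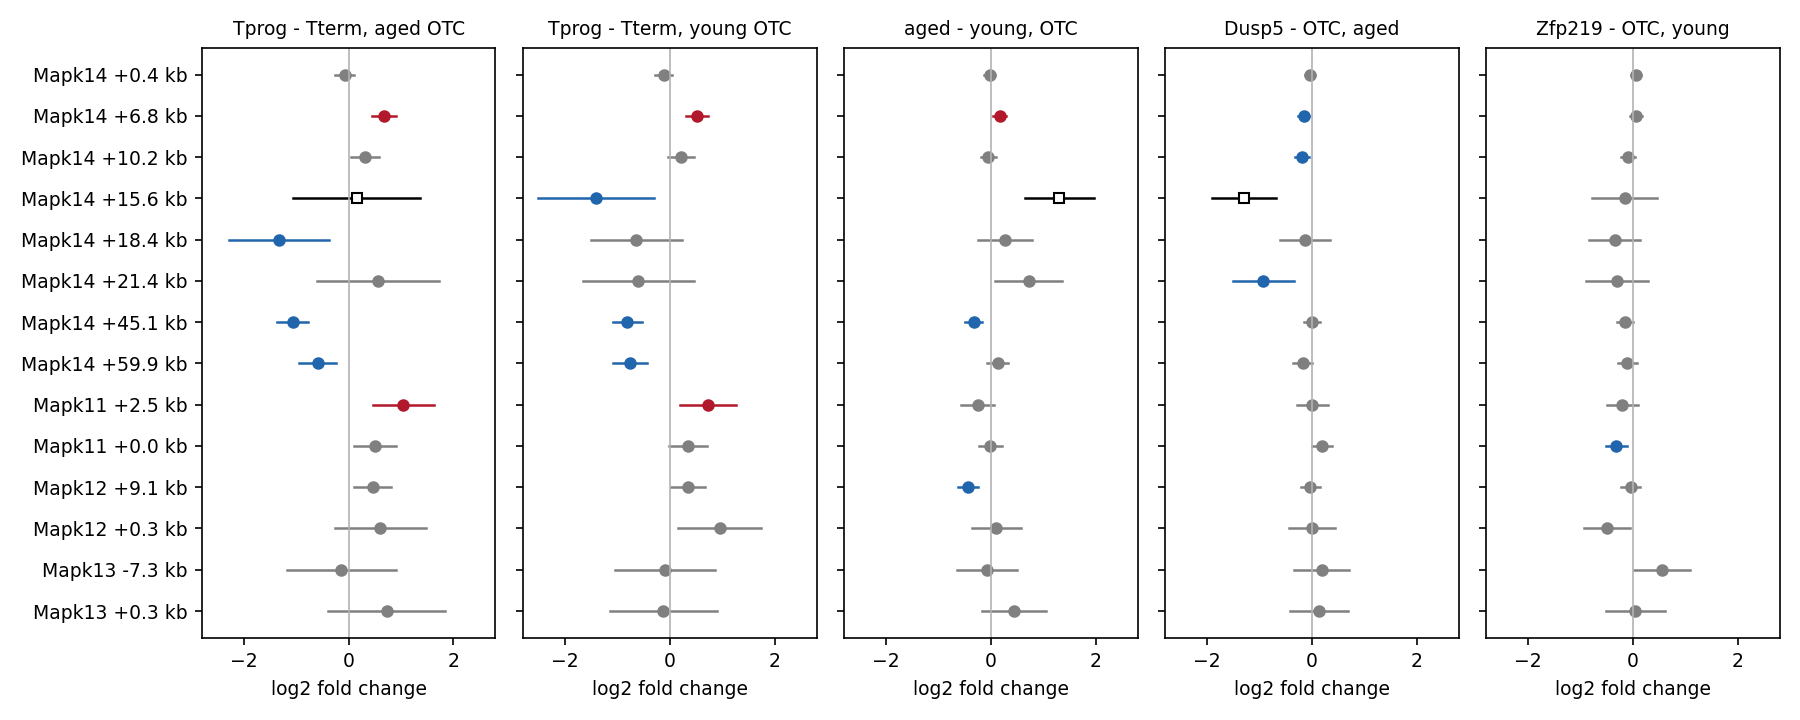
Log2 ratio with 95% interval (limma) of each of the 14 peaks in 5 comparisons; red is called higher, blue called lower, grey not called, and open squares are values with no test because the libraries chose the family. The +6.8 and +45.1 kb peaks of Mapk14 differ between Tprog and Tterm in opposite directions in both ages, and the Mapk14 start stays near zero in all 5.

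Across the 21 groups the members varied by different amounts. The ratio of the highest to the lowest group mean was 1.27 at the Mapk14 start, 1.78 at +6.8 kb, 1.74 at +10.2 kb, 2.73 at +45.1 kb and 2.36 at +59.9 kb. For Mapk11 it was 2.54 at +2.5 kb and 1.70 at the start, for Mapk12 1.98 at +9.1 kb and 3.77 at the start, and for Mapk13 3.24 and 3.17. The +45.1 kb peak was highest in young Dusp5 Tterm (449) and lowest in aged Zfp219 Tprog (165), and 4 of the 20 neighbouring pairs in its order differed by more than their SD. For Mapk11 +2.5 kb the order ran from young Dusp5 Tprog (150) to aged OTC Tterm (58.8), with 2 such pairs. The wide spread at +15.6 kb (61.3 in aged OTC Ttad to 2.95 in aged Zfp219 Tprog) comes with no pair of neighbours beyond its SD.

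Over the 21 group means of log2(normalized reads + 1), which share libraries' depth and sorting, the +45.1 kb peak followed +59.9 kb (Pearson r = 0.85) and +18.4 kb (r = 0.75) and ran against +6.8 kb (r = -0.84) and Mapk11 +2.5 kb (r = -0.65). The Mapk14 start was weakly related to its other peaks (r between -0.40 and 0.27). Of 53854 peaks elsewhere, those most like the Mapk14 start over the 21 groups were at Wrnip1 (r = 0.86), Nfatc1 (0.83), Rnf213 (0.83), Ncoa3 (0.82) and Dpy19l1 (0.82). Those most like +15.6 kb were near Olfr15 (r = 0.87), Nvl (0.85), Borcs5 (0.84), Rubcnl (0.82) and Serpinb1b (0.81). Both lists hold the highest of 53854 correlations over 21 groups and have no test. The Mapk14 start was nearly level, so its list can reflect the spread between libraries. The +15.6 kb list uses values that chose the peak.

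**Figure D5:**
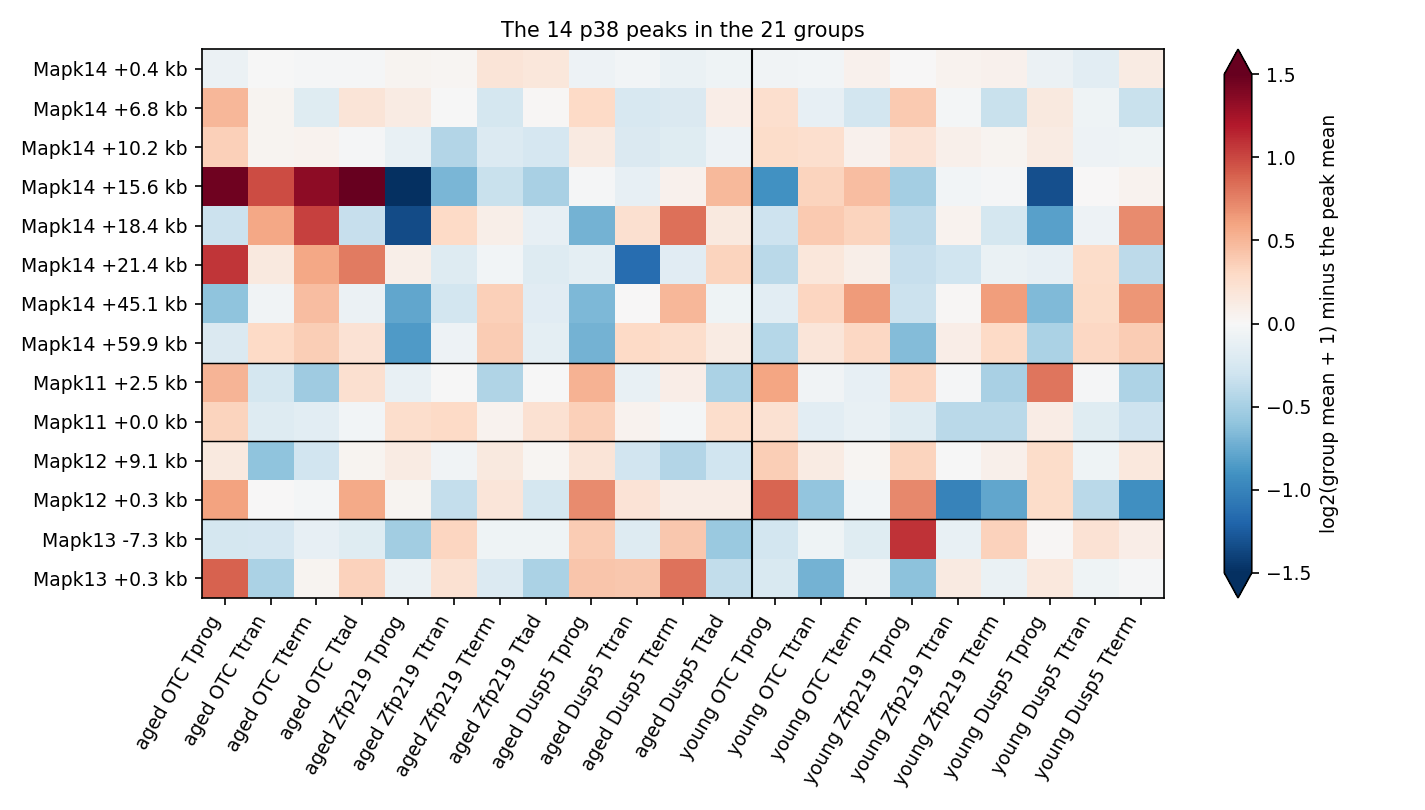
The 14 p38 peaks (rows, by gene and distance from the start) in the 21 groups (columns, aged then young); colour is log2(group mean + 1) minus that peak's mean over groups, with values beyond 1.5 drawn at the end of the scale. The Mapk14 start row is nearly flat, the +45.1 kb row is lower in Tprog than in the other states of the same age and guide, and the +15.6 kb row is highest in the 4 aged OTC columns.

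The rest of the pathway was followed in 4 lists, each gene by all its peaks: 19 upstream genes with 108 peaks, 15 downstream genes with 75, 6 phosphatases ("brakes") with 37 and 6 other MAP kinases with 22. Between Tprog and Tterm, 24 of 108 upstream peaks passed in aged OTC hosts (7 higher and 17 lower in Tprog; median log2 ratio of the list 0.04) and 37 in young (18 higher and 19 lower; median 0.03). These are 22.2% and 34.3% of the list, against 20.1% and 26.5% of all peaks, whose medians were 0.01 and 0.01. The upstream peak with the largest fold was near Gadd45a, a stress-induced activator of the MAP3 kinase Map3k4, 68 kb from its body, with 131 reads in Tprog against 20.8 in Tterm in aged hosts (log2 ratio 2.60, SE 0.43, adjusted p = 1.17e-06) and 195 against 22.1 in young (3.06, SE 0.39, adjusted p = 6.11e-10). Map3k3, a MAP3 kinase, had a peak with 72.1 against 11.5 reads in young hosts (2.72, SE 0.63, adjusted p = 0.000382).

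Downstream, 20 of 75 peaks passed in aged hosts (5 higher and 15 lower in Tprog; median -0.07) and 29 in young (8 higher and 21 lower; median -0.08), which is 26.7% and 38.7% of the list against 20.1% and 26.5% of all peaks. A peak next to Mapkapk2, the kinase MK2, was lower in aged Tprog (24.5 against 84.3 reads, log2 ratio -1.89, SE 0.36, adjusted p = 3.07e-05), and 1 next to Rps6ka4, the kinase MSK2, lower in young Tprog (10.5 against 42.6, -2.55, SE 0.60, adjusted p = 0.000489). Mef2a, a MEF2 factor, had a peak higher in aged Tprog (15.3 against 3.81) and another lower in young Tprog (4.37 against 22.6), both at low depth. These peaks lie 36226 and 30612 bp from the Mef2a body. Of the phosphatases, 8 of 37 peaks passed in aged hosts (4 and 4; median 0.06) and 13 in young (6 and 7; median -0.03), or 21.6% and 35.1% against the same 20.1% and 26.5%. Dusp10, a phosphatase of p38 and JNK, had peaks with 143 against 46.8 reads (1.60, SE 0.27, adjusted p = 2.79e-06) and 310 against 169 (0.87, SE 0.16, adjusted p = 1.52e-05) in aged hosts, both higher in Tprog. They lie 24948 and 41809 bp from the Dusp10 body. Of the other MAP kinases, 2 of 22 peaks passed in each age, 9.09% against 20.1% and 26.5% of all peaks (1 higher and 1 lower in aged, median -0.18; 2 higher in young, median 0.02), among them Mapk7 (ERK5), lower in aged Tprog (-0.34, SE 0.11, adjusted p = 0.0149), and Mapk8 (JNK1), higher in young Tprog (2.32, SE 0.64, adjusted p = 0.00362; 36.4 against 6.84 reads).

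By host age in OTC cells, 43 of 108 upstream peaks passed (22 higher and 21 lower in aged), 25 of 75 downstream (14 and 11), 13 of 37 phosphatase (8 and 5) and 9 of 22 other MAP kinase peaks (3 and 6), shares of 39.8%, 33.3%, 35.1% and 40.9% that lie near the 36.5% of all peaks. Tab2, an adaptor of the MAP3 kinase TAK1, had a peak 27 kb away with 164 reads in aged against 54.7 in young hosts (log2 ratio 1.57, SE 0.17, adjusted p = 6.39e-13), and Map3k5 (ASK1) one with 8.60 against 44.9 (-2.30, SE 0.37, adjusted p = 2.43e-07). In Dusp5 cells the counts by age were 32 of 108 (11 and 21), 25 of 75 (10 and 15), 10 of 37 (6 and 4) and 2 of 22 (1 and 1), against 31.8% of all peaks. For Dusp5 against OTC in aged hosts, 14 of 108 upstream (2 higher and 12 lower), 14 of 75 downstream (2 and 12), 6 of 37 phosphatase (1 and 5) and 1 of 22 other MAP kinase peaks (lower) passed, shares of 13%, 18.7%, 16.2% and 4.55% against 12.2% of all peaks. The last was at Mapk10 (JNK3), with 111 against 195 reads (-0.80, SE 0.14, adjusted p = 2.05e-05). Over all peaks, this comparison had 2344 called higher and 4241 called lower. In young hosts the counts for Dusp5 were 3 (1 higher and 2 lower), 4 (1 and 3), 2 (1 and 1) and 2 (0 and 2), against 3.82% of all peaks.

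For Zfp219 against OTC in young hosts, 7 of 108 upstream peaks passed (2 higher and 5 lower), 6 of 75 downstream (0 and 6), 2 of 37 phosphatase (2 and 0) and 0 of 22 other MAP kinase peaks in limma (3 at unadjusted p under 0.05; 0 in edgeR). The first 3 shares, 6.48%, 8% and 5.41%, lie near the 7.07% of all peaks, of which 1036 were higher and 2775 lower. The downstream kinase gene Mapkapk3 had 2 of its peaks lower (317 against 408 reads, log2 ratio -0.37, SE 0.07, adjusted p = 4.66e-05; 1365 against 1647, -0.27, SE 0.03, adjusted p = 1.04e-08). Dusp10 (364 against 300.1) and Dusp16 (647 against 562) each had 1 peak higher (0.28 and 0.21, adjusted p = 0.0226 and 0.0102). The Dusp10 peak lies 41809 bp from the gene body.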

How the data were processed

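ATAC-seq was done on 48 libraries in 21 groups, grouped by the sample titles. The authors deposited 1 table of normalized signal per peak; the submitters' processing notes name Bowtie2 2.2.9, Picard 2.8.0, SAMtools 1.3.1, MACS2 2.1.1, DESeq2 1.28.1 and mm10, without order, and duplicate handling and any shift of reads to the insertion site are not given in the sources used here. Each value is a whole multiple of the worth of 1 read (100% within 0.001), so reads were recovered; depth in peaks was 5638413 to 29942755 reads. Peaks were matched to RefSeq genes of GRCm38.p6. The main test was limma 3.58.1 (R 4.3.3) on log2(signal + 1) with a trended prior, 21 group means and no block, checked on simulated data; edgeR 4.0.16 with TMM on the recovered reads was an alternative, with a pseudocount of 8, leaving out the weakest 25% of peaks, quantile normalization, rescaling, only the compared groups, a replicate block and leaving out replicates. Members, lists and tests were chosen with earlier results of these data known. Named are each gene's strongest and start peaks, the peak that led to the choice, up to 4 called member peaks per comparison, and up to 2 called peaks per pathway list. The ratio of 2 Mapk14 peaks, the count over 6 sets and both tests of a difference between ages were added after seeing the data. Some genes of the lists are not reported here.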

Additional observations from a re-analysis of the deposited data

How the results depend on the processing

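The Tprog to Tterm calls at Mapk14 +6.8 and +45.1 kb kept direction and side of the threshold in both ages under every alternative run, and no named peak changed direction. Numbers of member peaks called moved elsewhere. With only the compared groups in the fit they were 0 for Ttran against Tterm in aged OTC (1 in the main analysis), 1 in young OTC (0), 0 for Ttad against Tprog (1), 0 for Zfp219 in young hosts (1), 1 for Dusp5 in aged (3) and 1 in young hosts (0). Quantile normalization gave 0 for Ttran against Tterm in aged OTC, 3 for Ttad against Tprog and 1 for Dusp5 in aged hosts. edgeR gave 0 for Ttad against Tprog and 1 for Dusp5 in young hosts. Leaving out 1 replicate number in turn gave 3 to 4 for Tprog against Tterm in aged and 2 to 4 in young OTC (5 each), 0 to 0 for Ttran against Tterm and for Ttad against Tterm in aged OTC (1 and 2), 0 to 1 for Ttad against Tprog (1), 1 to 3 for age in OTC (3), 1 to 2 for age in Dusp5 (2), 0 to 0 for Zfp219 in young (1) and 0 to 0 for Dusp5 in aged hosts (3). In these fits a group left with 1 library was assumed to vary like the others. Deviations of equal replicate numbers correlated at -0.0148 to 0.0146 over 66 pairs of aged groups and at -0.0167 to 0.0117 over 36 of young. The spread between replicates may be technical, so this does not show whether equal numbers share mice. The replicate block gave 1 call for age in Dusp5 (2) and ended the calls of Mapk14 +6.8 kb for age in OTC and for Dusp5 in aged hosts and of +15.6 kb for Tprog against Tterm in young OTC.

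Over all peaks, calls between Ttran and Tterm were 1735 in aged and 4515 in young OTC, and 625 and 7331 with only the compared groups. Without 1 replicate number, the all-peak counts that moved by over 1.5 times were 484 to 587 and 1756 to 2428 for these, 5675 to 5726 (from 10806) for Tprog against Tterm in aged and 8416 (from 14279, without replicate 2) in young OTC, 1359 to 1677 (from 3921) for Ttad against Tterm, 1029 to 1486 (from 3531) for Ttad against Tprog, 9569 (from 17134, without replicate 2) for age in Dusp5, 1333 to 2295 (from 3811) for Zfp219 in young, 2651 to 3046 (from 6585) for Dusp5 in aged and 400 to 1005 (from 2057) for Dusp5 in young hosts. The Mapk14 +15.6 kb value for Zfp219 in aged hosts was -2.43, and -1.73 with a pseudocount of 8. The filter on weak peaks leaves out 5 member peaks (Mapk14 +15.6, +18.4 and +21.4 kb and both of Mapk13), whose low depth limits what could be detected there. Rescaling changed nothing, since the deposited factors already are such factors.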
